A study of Mus musculus with 18 samples.

Results

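The genes described here encode the proteasome, and they were chosen by name. A row of the deposited table was taken when its symbol was Psm followed by one of the letters a to g and a number, with Psmb8 and Psmb9 left out. This rule found 46 of the 27179 genes listed. Of these, 44 reached an average normalized count of 10 over the 18 libraries, and the other 2, Psmb11 and Psma8, did not.

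RNA was sequenced from 18 cultures of primary bone marrow mesenchymal stem cells (MSCs) of C57BL6 mice, 6 of them young, 6 old and 6 rejuvenated old. Per the methods of the study, young MSCs came from mice of 6 weeks and old MSCs from mice of 18 to 24 months, all male, and the sources used here do not state whether marrow of several animals was pooled or how many donors a group had. Young and old MSCs were grown alone for 7 days and carry the treatment label of no treatment. Rejuvenated old MSCs began as old MSCs and spent these 7 days in one well with young MSCs held behind a Transwell membrane with pores of 0.4 µm, through which secreted factors pass and cells do not, and a culture of old beside other old MSCs was not analysed here, so the age of the neighbours and their mere presence cannot be told apart. All p-values measure only the spread between these 18 libraries.

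The proteasome is the barrel-shaped protease that degrades proteins tagged with ubiquitin. Its 20S core has outer rings of alpha subunits, which form the gate, and inner rings of beta subunits, of which β1 (Psmb6), β2 (Psmb7) and β5 (Psmb5) cut peptide bonds. The 19S regulatory particle binds ubiquitin chains, removes them and unfolds the substrate with its ring of ATPases. Interferon induces replacement subunits, Psmb10 in place of Psmb7, Psmb8 in place of Psmb5 and Psmb9 in place of Psmb6, together with the 11S activator of Psme1 and Psme2, and this immunoproteasome makes many of the peptides shown on MHC class I. A loss of proteasome function is one of the changes described for ageing cells, and cells in culture depend on the complex for the turnover of most short-lived proteins.

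Each library held between 22936251 and 29559194 reads on genes. The MSC markers Ly6a (which encodes Sca-1) and Cd44 were found in every library, with a summed normalized count between 22027 and 36165 in young, 8409 and 10611 in old and 13394 and 17548 in rejuvenated old MSCs. Ly6a made up most of this sum, and the 2 markers went opposite ways. Against old MSCs, Ly6a was higher in young (log2 fold change 2.02) and rejuvenated old MSCs (1.07). Cd44 was lower in both (-0.47 and -0.30). The endothelial marker Pecam1 was low in all groups, at most 22.9. The flow cytometry markers of blood cells differed, since Cd34 had a median of 7008 in young but 22.9 in old and 39.1 in rejuvenated old MSCs. Cd34 ran from 24.2 to 402 in rejuvenated old MSCs, against at most 28.0 in old MSCs. It was called higher there than in old MSCs (limma, adjusted p = 0.0271), and the source of its highest value was not tested. Ptprc (CD45) was listed at 0 in every young library and reached 162 to 208 in old MSCs. The 9 macrophage markers summed to between 920 and 1042 in young, 12040 and 15308 in old and 12032 and 14863 in rejuvenated old MSCs. All 8 of them that were tested were lower in young than in old MSCs, and Adgre1 was listed at 0 in every young library. The transcripts of the Y-linked genes Ddx3y, Eif2s3y, Kdm5d and Uty did not exceed 2 reads in any young library. They ran between 493 and 2355 normalized counts in every library of the other groups. All donors are stated to be male, and why these transcripts were near absent from the young libraries was not tested. Xist, the RNA that coats the inactive X chromosome of female cells, was also low, at 21.2 to 41.2 normalized counts in the young libraries and at most 14.4 in the others. These values stand beside every comparison with young MSCs, and their part in the differences was not tested. In such bulk RNA, fewer cells of a type and less RNA per cell cannot be told apart.

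Between rejuvenated old and old MSCs, Psme1 and Psme2 of the 11S activator and the inducible subunit Psmb10 rose together with the assembly chaperones of the 20S core, while the activator gene Psme4 and 6 genes of the 19S particle fell. Of the 44 members, 13 rose, 9 fell and 22 did not pass the test (limma on log2(normalized count + 1), Benjamini-Hochberg adjusted p under 0.05). This is 50% of the members, against 41.6% of the 14353 genes tested, of which 21% rose and 20.6% fell. At an adjusted p under 0.01 the members no longer stood above all genes, with 27.3% against 29.9% called. The changes were small. The median absolute log2 fold change was 0.09 over the members and 0.15 over all genes tested, and 1 member, Psme1, passed 0.5. The rejuvenated old libraries lay wholly above the old ones in 3 members (Psma3, Psme1 and Psme2) and wholly below them in 3 (Psmc3, Psmd1 and Psme4), where 22% of the genes tested had groups apart, 10.4% above and 11.6% below. The count of members that rose was 7 without rejuvenated old replicate 3 and 8 without rejuvenated old replicate 4.

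**Figure D1:**
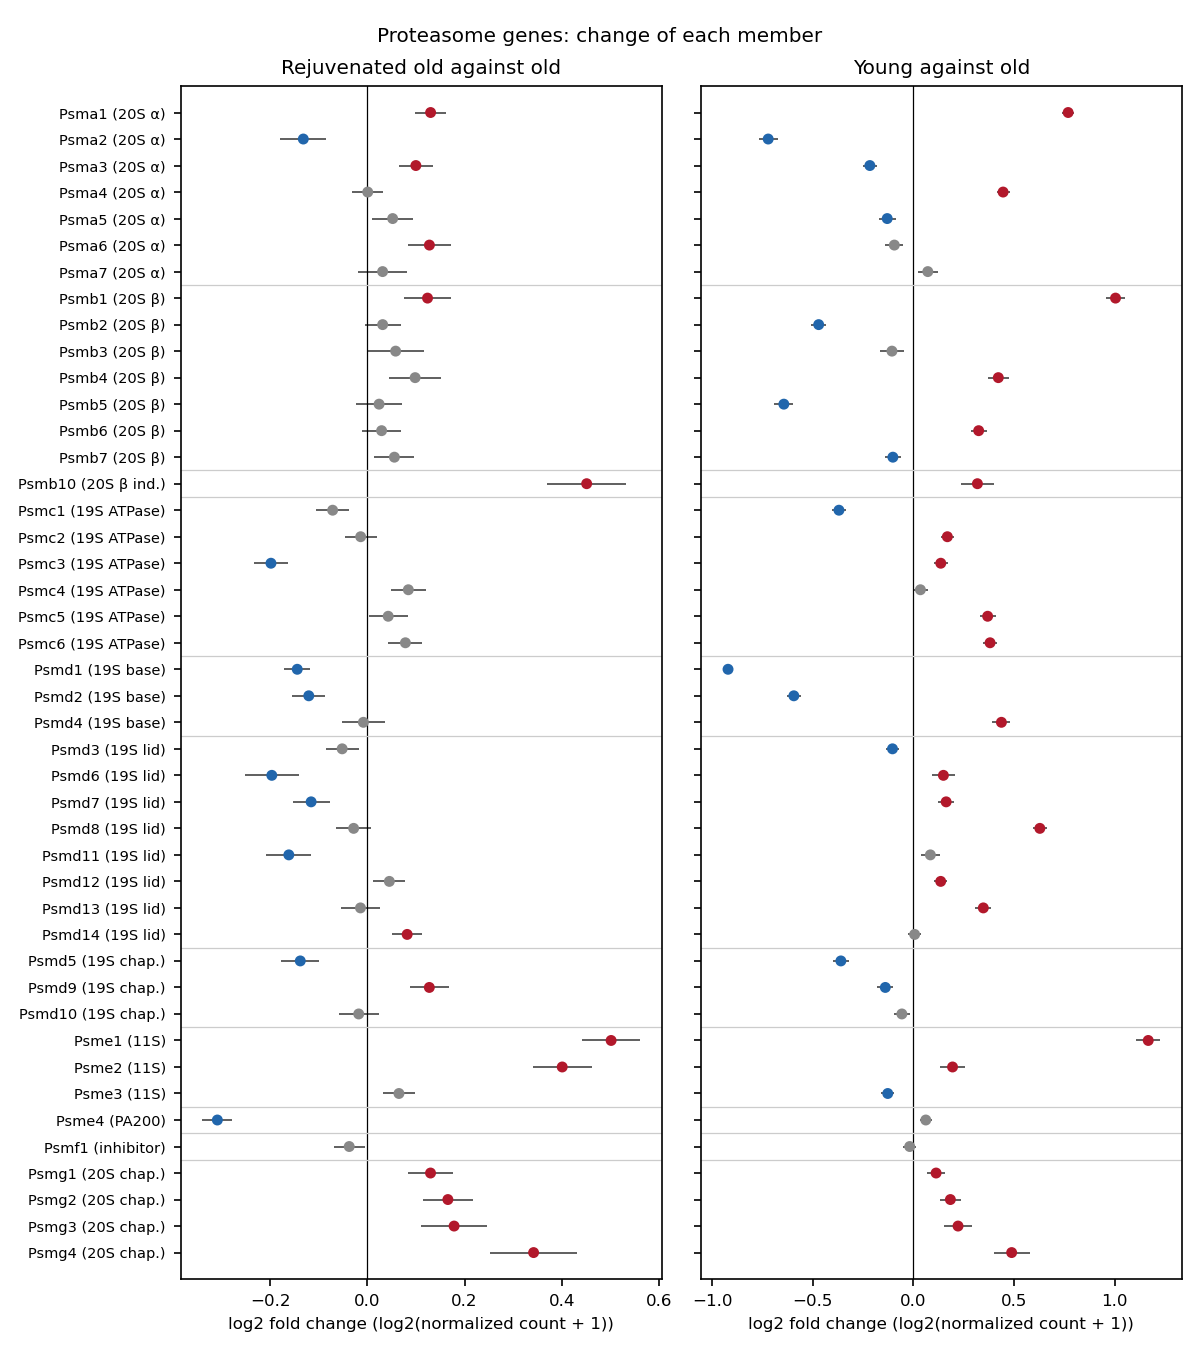
Log2 fold change of each of the 44 members (points, on the scale of log2(normalized count + 1), with the standard error of the limma fit as lines) for rejuvenated old against old MSCs on the left and young against old MSCs on the right, with separate axis ranges; red marks a higher, blue a lower and grey a member that did not pass the adjusted p of 0.05. Psme1, Psmb10, Psme2 and Psmg4 lie farthest to the right on the left panel and Psme4 farthest to the left, at -0.31.

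Psme1 (gene number 19186, chr14:55578494-55581527 in GRCm38) encodes PA28α, one of both chains of the 11S cap that opens the gate of the 20S core without ATP. Its normalized count ran from 1624 to 2183 in old MSCs (median 1756), from 2306 to 2889 in rejuvenated old MSCs (median 2501) and from 3822 to 4211 in young MSCs (median 4028). The 3 groups did not overlap, with rejuvenated old MSCs between the others. The rise over old MSCs was 0.50 ± 0.06 (SE) on the log2 scale, or 1.42-fold (limma, adjusted p = 5.11e-07). Old replicate 2 was the highest old library, at 2183, and without it the rise was 0.56.

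Psme2 (gene number 19188, chr14:55587440-55591101) encodes PA28β, the partner chain of PA28α, and lies within 10 kb of Psme1. It ran from 1853 to 2257 in old MSCs (median 1985), from 2287 to 3009 in rejuvenated old MSCs (median 2627) and from 2098 to 2469 in young MSCs (median 2314). The rejuvenated old libraries lay above every old library, while the young libraries overlapped with both. The rise over old MSCs was 0.40 ± 0.06 (SE) (limma, adjusted p = 1.64e-05). Its transcript shares 794 bases at 99.4% identity with Psme2b, a coding copy for which no value was used here, so reads of both cannot be told apart.

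Psmb10 (gene number 19171, chr8:105935728-105938392) encodes β2i, the interferon-induced form of the trypsin-like subunit. Its normalized count ran from 1088 to 1571 in old MSCs (median 1133) and from 1399 to 1840 in rejuvenated old MSCs (median 1725). The overlap came from old replicate 2 alone, at 1571, since the other old libraries ended at 1225. Psmb10 rose by 0.45 ± 0.08 (SE) on the log2 scale (limma, adjusted p = 0.00011), and by 0.53 without old replicate 2 (limma, adjusted p = 1.49e-06). Young MSCs, from 1334 to 1661 (median 1469), overlapped with both other groups.

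Psme4 (gene number 103554, chr11:30771775-30881150) encodes PA200, a single large chain that caps the core and is known for the degradation of acetylated histones. It ran from 2893 to 3240 in old MSCs (median 3039), from 2397 to 2585 in rejuvenated old MSCs (median 2434) and from 3097 to 3352 in young MSCs (median 3151). All rejuvenated old libraries lay below those of both other groups, which overlapped. The fall against old MSCs was -0.31 ± 0.03 (SE) (limma, adjusted p = 4.28e-08), the largest fall of any member. The 11 genes tested within 1000 kb of Psme4 had a median log2 fold change of -0.24, whereas the 53 around Psme1 had 0.09.

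Psme3 (gene number 19192), the nuclear 11S activator PA28γ, had a median normalized count of 3013 in old, 3196 in rejuvenated old and 2791 in young MSCs. Its log2 difference between rejuvenated old and old MSCs was 0.06 ± 0.03 (SE) and did not pass (limma, adjusted p = 0.125). Psmf1 (gene number 228769), the inhibitor PI31, ran from 1676 to 1726 in old MSCs, from 1565 to 1732 in rejuvenated old MSCs and from 1563 to 1766 in young MSCs. The groups overlapped throughout, and Psmf1 passed the test in none of the 3 comparisons.

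**Figure D2:**
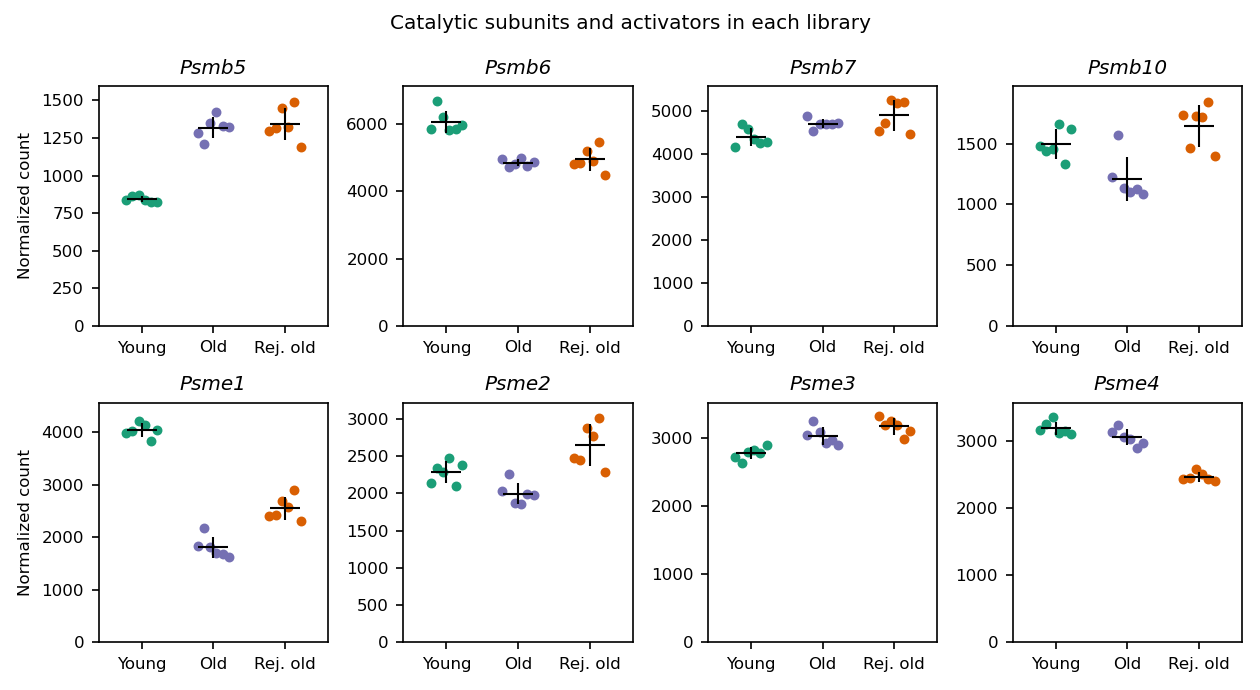
Normalized count (linear axis from 0) of the catalytic subunits Psmb5, Psmb6, Psmb7 and Psmb10 and of the activators Psme1 to Psme4 in each library, with 6 libraries per group as points and the mean ± SD in black. The rejuvenated old libraries stand above all old libraries for Psme1 and Psme2 and below them for Psme4, and a single old library lies at 1571 for Psmb10.

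None of the constitutive catalytic subunits passed between rejuvenated old and old MSCs, and each differed between young and old MSCs. Of all genes tested, 41.6% passed in the former comparison and 85.7% in the latter, so most genes gave the same picture in each. Psmb5 (gene number 19173, chr14:54614120-54617995), the chymotrypsin-like subunit, ran from 1209 to 1422 in old MSCs (median 1326), from 1192 to 1487 in rejuvenated old MSCs (median 1320) and from 825 to 870 in young MSCs (median 837). The young libraries lay below all others. Its log2 fold change was 0.02 ± 0.05 (SE) for rejuvenated old against old MSCs (limma, adjusted p = 0.723) and -0.64 ± 0.05 (SE) for young against old MSCs (limma, adjusted p = 1.11e-11). A processed pseudogene, Gm3375, shares 796 bases of Psmb5 at 98.9% identity.

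Psmb6 (gene number 19175, chr11:70525324-70527858), the caspase-like subunit, ran from 4708 to 4970 in old MSCs (median 4823), from 4491 to 5456 in rejuvenated old MSCs (median 4868) and from 5821 to 6674 in young MSCs (median 5912). Here the young libraries lay above all others, the opposite side from Psmb5. The log2 fold change was 0.03 ± 0.04 (SE) for rejuvenated old against old MSCs (limma, adjusted p = 0.603) and 0.32 ± 0.04 (SE) for young against old MSCs (limma, adjusted p = 1.14e-07). Psmb7 (gene number 19177, chr2:38588046-38643952), the constitutive trypsin-like subunit, had medians of 4711 in old, 4965 in rejuvenated old and 4316 in young MSCs, and its groups overlapped. Its log2 fold change was -0.10 ± 0.04 (SE) for young against old MSCs (limma, adjusted p = 0.0257), a call that was lost under each of the 3 other scalings tried, and its adjusted p over all alternatives ran from 0.00503 to 0.502. Between rejuvenated old and old MSCs the difference was 0.06 ± 0.04 (SE) (limma, adjusted p = 0.302).

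The bases just before an annotated start of 5 genes are shown, those of the inducible members that rose together and of a pair of constitutive catalytic genes that did not. Nfe2l1 (NRF1) and Nfe2l2 (NRF2) bind the antioxidant response element, searched here as TGACNNNGC on both strands, and interferon regulatory factors bind a site searched here as GAAA, any 2 bases and GAAA again, also on both strands. RefSeq promoter windows of GRCm38.p6 were found for 37 of the 44 members and searched over the 250 bases before the start. TGACNNNGC was found in 5 of 37 members (13.5%) against 10.2% of all 32851 windows, in Psmb5, Psmb6, Psmc6, Psmd12 and Psmd9. The interferon site was found in 3 of 37 (8.11% against 2.98%), in Psmb3, Psmd4 and Psmd9. The heat shock element TTCNNNGAA was found in 1 of 37 (2.70% against 7.02%), in Psmg1, and CCAAT in 12 of 37 (32.4% against 33.8%). Members were counted as genes, with 40 windows for the 37, and the background as windows, so the paired shares are not in the same unit. Neither of the first pair was in the windows of Psme1, Psme2 or Psmb10, which says only that these letters are not in that stretch. The start used here is that of the promoter window. For Psmb6 the stretch shown ends at chr11:70525356, past the gene start of 70525324 given above. Its match, at the end of the stretch, thus lies inside that gene span. Capitals mark a match to TGACNNNGC in the last 150 bases before the start, each read along the strand of its gene (plus for Psmb6 and Psme1, minus for Psmb5, Psme2 and Psmb10), at chr14:54617996-54618145, chr11:70525207-70525356, chr14:55578344-55578493, chr14:55591102-55591251 and chr8:105938393-105938542 in this order:
Psmb5: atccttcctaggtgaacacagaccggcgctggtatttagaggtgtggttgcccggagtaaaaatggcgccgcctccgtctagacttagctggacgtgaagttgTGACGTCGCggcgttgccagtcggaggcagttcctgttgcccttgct
Psmb6: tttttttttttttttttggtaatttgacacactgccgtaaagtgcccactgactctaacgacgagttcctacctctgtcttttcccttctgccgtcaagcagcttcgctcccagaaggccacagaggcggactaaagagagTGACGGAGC
Psme1: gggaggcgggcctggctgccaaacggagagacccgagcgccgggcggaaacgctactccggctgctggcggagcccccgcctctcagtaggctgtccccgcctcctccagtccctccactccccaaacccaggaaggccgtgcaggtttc
Psme2: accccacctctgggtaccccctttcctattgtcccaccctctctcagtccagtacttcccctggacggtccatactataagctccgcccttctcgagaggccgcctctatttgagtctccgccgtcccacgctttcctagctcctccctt
Psmb10: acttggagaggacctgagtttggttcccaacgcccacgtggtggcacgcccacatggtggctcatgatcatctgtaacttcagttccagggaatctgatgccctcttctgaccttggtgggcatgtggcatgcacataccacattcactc

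The 14 constitutive genes of the 20S core moved little between rejuvenated old and old MSCs, with log2 fold changes between -0.13 (Psma2) and 0.13 (Psma1). Psma1, Psma3, Psma6 and Psmb1 rose, Psma2 fell, and the other 9 did not pass. Psma1 (gene number 26440, chr7:114264550-114276116), an outer ring subunit, ran from 2136 to 2279 in old MSCs (median 2222) and from 2243 to 2515 in rejuvenated old MSCs (median 2449), so that the groups overlapped at their edges (limma, adjusted p = 0.00201). For Psma3, named after its values were seen, the groups did not overlap, at a log2 difference of 0.10. The calls of Psma2, Psma3, Psma6 and Psmb1 were each lost without at least 3 of the libraries in turn. Summed over the 14 genes, the normalized count had a median of 57875 in old MSCs (56663 to 58229), 60522 in rejuvenated old MSCs (54195 to 64420) and 64346 in young MSCs (62606 to 70976). The mean of this sum was 4.24% higher in rejuvenated old and 14.6% higher in young than in old MSCs. The rejuvenated old libraries spread on both sides of the old ones, and the former difference was 2.73% without rejuvenated old replicate 5 and 6.28% without rejuvenated old replicate 6. Most of the difference of young from old MSCs lay in Psmb1, with a mean of 15396 in young and 7661 in old MSCs. The means of the sum were 66017 and 57624. Over the 14 genes the median log2 fold change of young against old MSCs was -0.10, with 5 higher and 6 lower.

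In the 19S regulatory particle 6 of 17 genes fell in rejuvenated old MSCs, 1 rose and 10 did not pass. The share called, 41.2%, was close to the 41.6% of all genes tested, and a difference from the 20S core (35.7% called) was not tested. The 6 were the ATPase Psmc3, the base scaffolds Psmd1 and Psmd2, and the lid genes Psmd6, Psmd7 and Psmd11. The lid gene Psmd14, the deubiquitinase that removes the chain, was the one that rose, by 0.08, and its call was lost in 12 of 30 alternatives. Psmc3 (gene number 19182, chr2:91054016-91059438) encodes Rpt5, a subunit of the unfolding ring. It ran from 7433 to 7758 in old MSCs (median 7540), from 5971 to 6955 in rejuvenated old MSCs (median 6637) and from 7951 to 8818 in young MSCs (median 8187). The 3 groups did not overlap, and rejuvenated old MSCs were the lowest, away from young MSCs. The fall was -0.20 ± 0.03 (SE) against old MSCs (limma, adjusted p = 7.35e-05).

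Psmd6 (gene number 66413, chr14:14112185-14120945) encodes Rpn7, a scaffold of the lid. It ran from 2343 to 2502 in old MSCs (median 2414), from 1797 to 2360 in rejuvenated old MSCs (median 2215) and from 2520 to 2871 in young MSCs (median 2659). The rejuvenated old range reached into the old one from below, and all young libraries lay above it. The log2 fold change was -0.20 ± 0.06 (SE) for rejuvenated old against old MSCs (limma, adjusted p = 0.00696). Psmd1 (gene number 70247, chr1:86064619-86139295) encodes Rpn2, the large scaffold of the base, and it ran from 7684 to 8279 in old MSCs (median 7962), from 6922 to 7413 in rejuvenated old MSCs (median 7268) and from 4116 to 4320 in young MSCs (median 4201). The groups were apart in the order young, rejuvenated old, old. The log2 fold change against old MSCs was -0.14 ± 0.03 (SE) in rejuvenated old (limma, adjusted p = 0.000139) and -0.92 ± 0.03 (SE) in young MSCs (limma, adjusted p = 2.49e-19).

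Over the 17 genes of the 19S particle, the summed normalized count had a median of 74232 in old MSCs (73409 to 75937), 71701 in rejuvenated old MSCs (65695 to 74531) and 72831 in young MSCs (72333 to 77336). The ranges overlapped in all pairs. The mean differed from that of old MSCs by -4.41% in rejuvenated old MSCs and by -0.720% in young MSCs, and the sign of the latter turned with the scaling (log2 ratio -0.01 as deposited, 0.06 with each library set to the same total). The lowest rejuvenated old library of both the 20S and the 19S sum was replicate 6, and without it the 19S difference from old MSCs was -2.93%. The small difference of young MSCs lay between -1.63% (without young replicate 2) and -0.283% (without young replicate 4) with each library left out in turn.

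**Figure D3:**
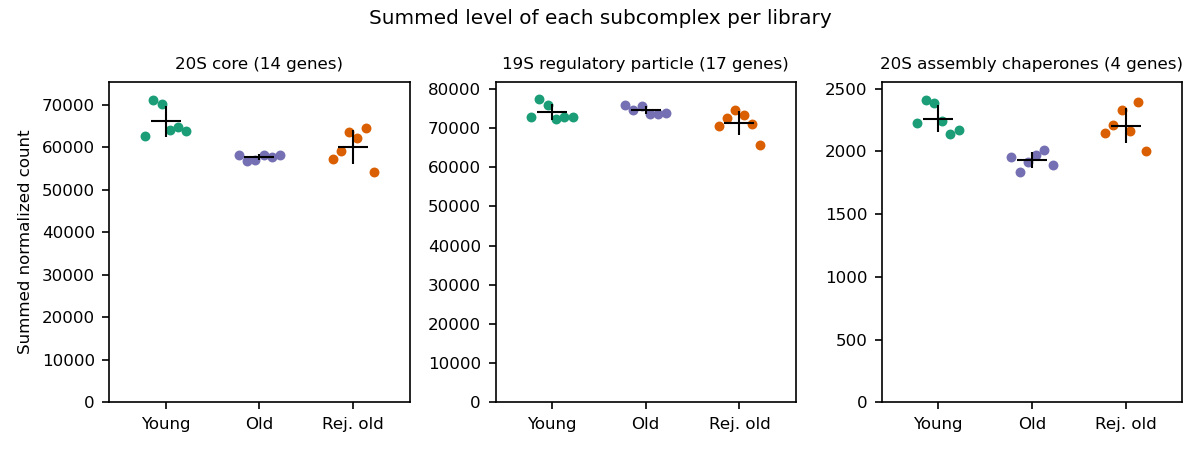
Summed normalized count per library (linear axis from 0) of the 14 constitutive 20S core genes, the 17 genes of the 19S regulatory particle and the 4 assembly chaperones of the 20S core, with 6 libraries per group as points and the mean ± SD in black. The young libraries lie above the old ones for the 20S core, all 3 groups overlap for the 19S particle, and the old libraries are the lowest group for the chaperones, at 1838 to 2009. Most of the difference between young and old MSCs in the 20S sum lies in Psmb1.

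The assembly chaperones of the 20S core, which pair off as Psmg1 with Psmg2 and Psmg3 with Psmg4 and help the alpha ring to form, were the one role of more than 1 gene in which all members passed in the same direction in both comparisons with old MSCs. They are named here after their values were seen. All 4 were higher in rejuvenated old than in old MSCs, by 0.13 (Psmg1) to 0.34 (Psmg4) on the log2 scale. All 4 were also higher in young than in old MSCs, by 0.11 (Psmg1) to 0.49 (Psmg4). Over all genes tested, 21% were higher in the former comparison and 41.6% in the latter. Between young and rejuvenated old MSCs 0 of 4 passed, with log2 differences from -0.02 to 0.15, where 85.6% of all genes tested passed. Psmg4 did pass there in 3 of 30 alternatives. These were the same total, quantile normalization and the fit without rejuvenated old replicate 5. A difference that does not pass is not shown to be absent. The old libraries enter both of the first comparisons, so these are not independent of each other.

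Psmg4 (gene number 69666) had the largest change of the 4. It ran from 302 to 393 in old MSCs (median 353), from 352 to 544 in rejuvenated old MSCs (median 447) and from 425 to 552 in young MSCs (median 492). The young libraries lay above all old libraries, and the rejuvenated old libraries overlapped with both. The adjusted p of rejuvenated old against old MSCs was 0.0037 for Psmg4, 0.0126 for Psmg2, 0.0295 for Psmg1 and 0.0397 for Psmg3 (limma). Psmg2 and Psmg4 kept their calls under each library left out, while 2 of 4 calls were left without old replicate 2, old replicate 6, rejuvenated old replicate 3 or rejuvenated old replicate 5. The summed level of the 4 genes was 14.3% higher in rejuvenated old and 17.2% higher in young than in old MSCs, with medians of 2183, 2235 and 1936. The summed level of 6 proliferation genes ran from 7927 to 9500 in rejuvenated old and 6918 to 8356 in old MSCs. In young MSCs this sum ran from 6584 to 8005. Of the 6 genes, 3 (Top2a, Cdk1 and Pcna) rose in rejuvenated old against old MSCs and 0 fell, where 21% of all genes tested rose. In young against old MSCs 1 of the 6 was higher and 3 were lower, where 41.6% and 44.1% of all genes tested were. The part of proliferation in the rise of the chaperones was not tested.

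**Figure D4:**
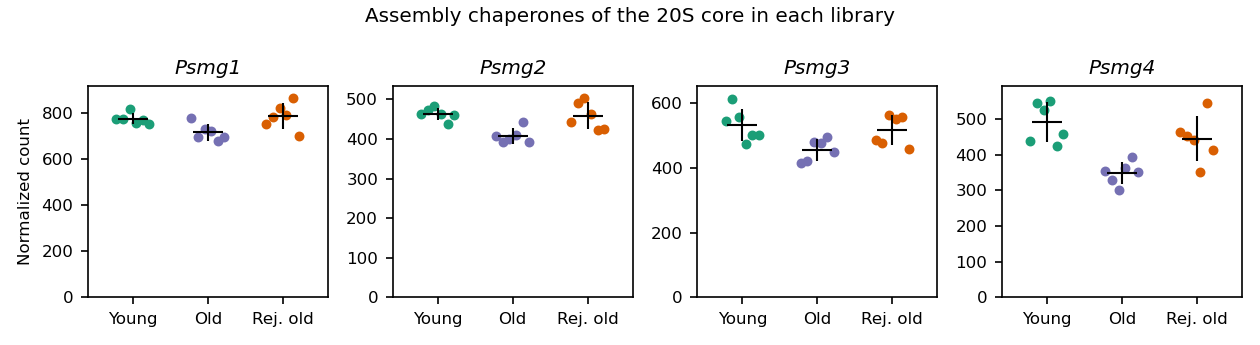
Normalized count (linear axis from 0) of the 4 assembly chaperones of the 20S core in each library, with 6 libraries per group as points and the mean ± SD in black. For each gene the mean of old MSCs is the lowest, and single libraries of the groups overlap except for Psmg4 between young and old MSCs.

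The chaperones of the 19S base did not share a direction. Psmd5 fell (-0.14) and Psmd9 rose (0.13) in rejuvenated old against old MSCs on the log2 scale, and Psmd10, also known as gankyrin, did not pass (-0.02). Both Psmd5 and Psmd9 were lower in young MSCs, with log2 fold changes of -0.36 and -0.14 against old MSCs.

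Between young and old MSCs, 22 members were higher and 13 lower in young MSCs, and 9 did not pass. This is 79.5% of the members against 85.7% of all genes tested (41.6% higher, 44.1% lower), a share near that of all genes. The median absolute difference was 0.21 on the log2 scale over the members and 0.60 over all genes tested. The young libraries lay wholly above the old ones in 17 members and wholly below them in 9, where 73.9% of the genes tested had groups apart, 35.7% above and 38.2% below. The split depended on the scaling, with 27 higher and 8 lower when each library was set to the same total and 26 higher and 10 lower after quantile normalization. In the 20S core 5 genes were higher (Psma1, Psma4, Psmb1, Psmb4 and Psmb6) and 6 lower, while in the 19S particle 10 were higher and 4 lower, these 4 being Psmc1, Psmd1, Psmd2 and Psmd3.

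The largest differences ran in both directions within the same ring. Psme1 was 2.24-fold higher in young than in old MSCs (log2 fold change 1.17 ± 0.06 SE, limma, adjusted p = 1.22e-14). Psmb1 (gene number 19170, chr17:15475721-15498276), a beta subunit without catalytic activity, ran from 14317 to 16915 in young MSCs (median 15032), from 7334 to 7887 in old MSCs (median 7643) and from 7480 to 9124 in rejuvenated old MSCs (median 8507). The young libraries stood well above both other groups, at a log2 fold change of 1.00 ± 0.05 (SE) against old MSCs (limma, adjusted p = 3.25e-15). Psma1, from 3645 to 3885 in young MSCs (median 3791), followed with 0.77 ± 0.03 (SE) (limma, adjusted p = 2.05e-16).

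On the lower side stood Psmd1, at -0.92, and Psma2 (gene number 19166, chr13:14613242-14625673), an alpha subunit that ran from 2696 to 3144 in young MSCs (median 2819), from 4571 to 4858 in old MSCs (median 4705) and from 3771 to 4806 in rejuvenated old MSCs (median 4337). The young libraries lay below both other groups. The log2 fold change of Psma2 was -0.72 ± 0.05 (SE) against old MSCs (limma, adjusted p = 1.36e-12), followed by Psmb5 at -0.64. Subunits that sit in the core in equal number are thus encoded by genes that differed in opposite directions here.

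Some chromosomes had a shifted median over all their genes. Between young and old MSCs, all genes tested had a median log2 difference of -0.69 on chromosome 1, 0.61 on chromosome 7, -0.46 on chromosome 12 and -0.75 on chromosome 16, where the median over all autosomes was -0.03. These 4 chromosomes, picked as those with the largest shift, hold 10 of the 44 members. The lone member on chromosome 1, Psmd1, was lower in young MSCs. On chromosome 7, Psma1, Psmd8 and Psmd13 were higher and Psmc4 did not pass. On chromosome 12, Psma3 and Psmc1 were lower and Psma6 did not pass, and on chromosome 16, Psmd2 was lower and Psmg1 higher. The median absolute log2 fold change was 0.36 over these 10 members and 0.18 over the other 34. Members with large differences also lay elsewhere, among them Psme1 and Psmb5 on chromosome 14 (chromosome median 0.19), Psmb1 on chromosome 17 (0.22) and Psma2 on chromosome 13 (-0.30). In rejuvenated old against old MSCs the medians of chromosomes 1, 7, 12 and 16 lay between -0.01 and 0.06. The part of the chromosome in each member's difference was not tested.

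**Figure D5:**
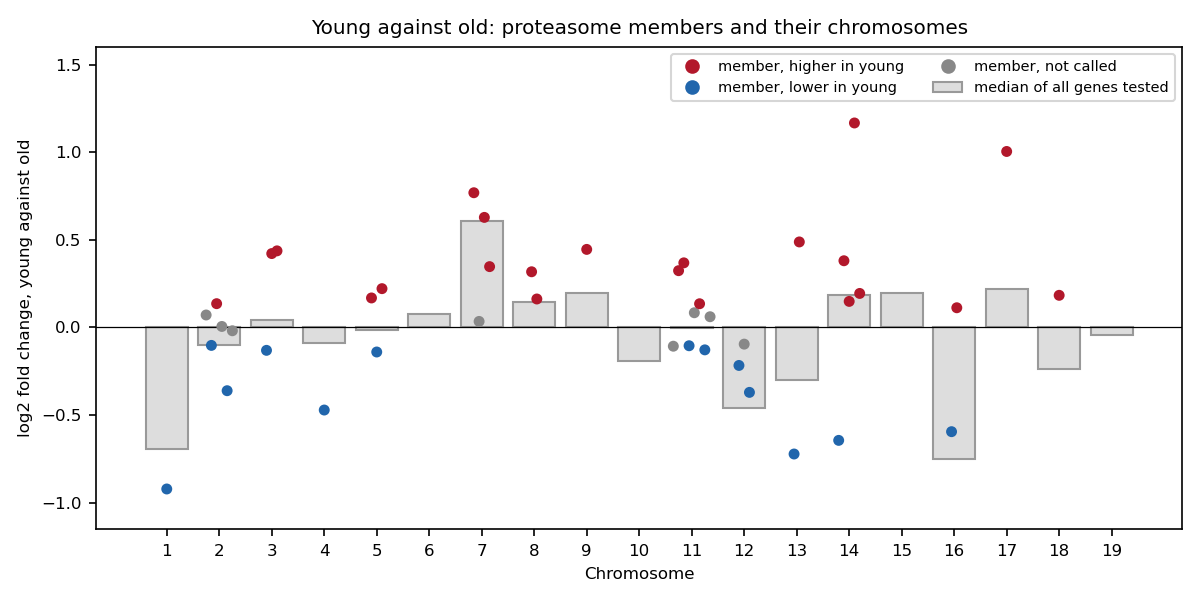
Log2 fold change of young against old MSCs by autosome, with bars for the median of all genes tested on the chromosome and points for the proteasome members (red higher, blue lower, grey not called in young MSCs). Chromosomes 1, 12 and 16 have low medians and chromosome 7 a high one, at 0.61, and most but not all members on them lie on the same side.

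Between young and rejuvenated old MSCs, 18 members were higher and 16 lower in young MSCs and 10 did not pass, or 77.3% against 85.6% of all genes tested (41.5% higher, 44.1% lower). With each library set to the same total the split was 21 higher and 12 lower. The median absolute difference was 0.27 on the log2 scale over the members and 0.58 over all genes tested. The groups were apart in 27 members, with the young libraries above in 17 and below in 10, where 70.5% of the genes tested had groups apart (34% above, 36.5% below). Psmb10 did not pass between young and rejuvenated old MSCs (-0.13 ± 0.08 SE, limma, adjusted p = 0.128), Psme2 was lower in young MSCs (-0.21 ± 0.06 SE, limma, adjusted p = 0.0035) and Psme1 was higher (0.67 ± 0.06 SE, limma, adjusted p = 3.95e-10). Psme4 was higher in young MSCs by 0.37 ± 0.03 (SE) (limma, adjusted p = 1.22e-10).

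Per kilobase of exon the constitutive 20S core had a higher median than the 19S particle, and their ranges overlapped. The length was that of all annotated exons of a gene merged, so exons not in use lower the value. The mean normalized count per kilobase over all libraries ran from 1301 (Psmb5) to 6617 (Psmb6) in the constitutive 20S core (median 3515) and from 600 (Psmd11) to 3669 (Psmc3) in the 19S particle (median 2078). The assembly chaperones of the core, at 340 to 771, Psme4, at 447, and Psmf1, at 420, were lower. Psmd11 shares 1501 bases at 97.9% identity with A730017L22Rik, and 13 members in all share at least 200 bases at 95% identity or more with another transcript, so that their reads may be divided or lost. The 2 members below the filter were near 0. Psmb11, the thymus form of β5, had at most 4 reads in any library. Psma8, the testis form of Psma7, had 0 reads in the young libraries, which allows up to 3 reads per library, and at most 3 reads in any other library.

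The ratio of induced to constitutive subunit was computed per library on counts per exon base, with Psmb8 and Psmb9, which are outside the members, as partners. Psmb10 to Psmb7 had a median of 0.213 in old MSCs (0.204 to 0.307), 0.292 in rejuvenated old MSCs (0.274 to 0.337) and 0.298 in young MSCs (0.271 to 0.337). Psmb8 to Psmb5 had medians of 0.535 in old, 0.975 in rejuvenated old and 0.247 in young MSCs, and Psmb9 to Psmb6 had 0.0462, 0.0811 and 0.0205. All 3 ratios were thus higher in rejuvenated old than in old MSCs at the median, but against young MSCs they did not follow one order. The top of each old range was old replicate 2. The ratio of Psme1 to Psme2 was 0.798 in old (0.719 to 0.849), 0.847 in rejuvenated old (0.816 to 0.885) and 1.55 in young MSCs (1.47 to 1.64), where the young libraries stood apart from the others.

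Psmb8, the induced β5i, ran from 1011 to 2131 in old MSCs (median 1282), from 1992 to 2832 in rejuvenated old MSCs (median 2479) and from 311 to 569 in young MSCs (median 382). Old replicate 2, at 2131, was the one old library within the rejuvenated old range. Psmb8 rose by 0.86 ± 0.16 (SE) in rejuvenated old MSCs (limma, adjusted p = 0.00011), by 1.00 without old replicate 2, and its log2 fold change in young against old MSCs was -1.75 ± 0.16 (SE) (limma, adjusted p = 3.7e-10). Psmb9, the induced β1i, had medians of 380 in old, 670 in rejuvenated old and 211 in young MSCs, with log2 fold changes against old MSCs of 0.72 ± 0.15 (SE) in rejuvenated old (limma, adjusted p = 0.000369) and -0.92 ± 0.15 (SE) in young MSCs (limma, adjusted p = 3.59e-06). In the list of class I loading genes that holds both, 6 of 11 rose in rejuvenated old MSCs and 0 fell, the others being Irf1 (0.46), B2m (0.38), Tap2 (0.14) and Calr (0.13) on the log2 scale, where 21% of all genes tested rose and 20.6% fell. Between young and old MSCs 2 of the 11 were higher and 4 lower, or 54.5% called against 85.7% of all genes. Of the 8 macrophage markers tested, which mark cells known to carry the immunoproteasome, 8 were lower in young MSCs, while between rejuvenated old and old MSCs 1 rose (Itgam) and 1 fell (Cd68). Their part in these values was not tested.

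Of the genes that work with the proteasome, 57 were tested from 5 lists. In rejuvenated old against old MSCs 12 rose and 17 fell, or 50.9% against 41.6% of all genes tested, and in young against old MSCs 18 were higher and 24 lower, or 73.7% against 85.7%. Among 11 partners of the complex, 1 rose in rejuvenated old MSCs (Akirin2, which carries the proteasome into the nucleus, 0.11) and 4 fell (Sem1, the smallest lid subunit, -0.21, with Ecpas, Ube3c and Zfand5), or 45.5% called. Sem1 ran from 5170 to 6082 in old MSCs (median 5502), from 4240 to 5217 in rejuvenated old MSCs (median 4935) and from 4649 to 5519 in young MSCs (median 4763), with the old range at the top and an overlap in each pair. Pomp, the maturation factor of the 20S core, did not pass in rejuvenated old against old MSCs (0.05 ± 0.05 SE, limma, adjusted p = 0.52) and was lower in young than in old MSCs (-0.17 ± 0.05 SE, limma, adjusted p = 0.00667), so it did not share the direction of the Psmg genes. The median normalized count of Pomp was 3159 in old, 3255 in rejuvenated old and 2718 in young MSCs. In young against old MSCs 3 partners were higher (Akirin2, 0.68, with Zfand5 and Uchl5) and 5 lower (Pomp, Sem1, Adrm1, Usp14 and Zfand2a), or 72.7% called. Akirin2 ran from 1369 to 1607 in old MSCs (median 1475), from 1518 to 1674 in rejuvenated old MSCs (median 1611) and from 2260 to 2474 in young MSCs (median 2362), so that the young libraries stood above all others.

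The list around Nfe2l1, the factor known to raise proteasome genes when the complex is inhibited, had 1 of 14 genes that rose and 6 that fell in rejuvenated old MSCs, or 50% called against 41.6% of all genes tested. Nfe2l1 (gene number 18023) ran from 8294 to 9089 in old MSCs (median 8758), from 7528 to 8533 in rejuvenated old MSCs (median 8187) and from 10572 to 11521 in young MSCs (median 10854). Its young libraries lay above all others, at a log2 fold change of 0.32 ± 0.03 (SE) (limma, adjusted p = 6.94e-09), while the change in rejuvenated old MSCs was -0.10 ± 0.03 (SE) (limma, adjusted p = 0.0217). Nfe2l2 had medians of 3601 in old, 2925 in rejuvenated old and 3451 in young MSCs, with a log2 fold change of -0.29 ± 0.05 (SE) in rejuvenated old against old MSCs (limma, adjusted p = 6.7e-05). The small Maf protein Maff, a partner of both factors on DNA, was the gene of the list that rose, by 0.73, with medians of 1128 in old, 1888 in rejuvenated old and 965 in young MSCs. In young against old MSCs 5 genes of this list were higher (Nfe2l1, Mafg, Mafk, Hsf1 and Syvn1) and 6 lower, with Btrc, a subunit of a ubiquitin ligase, the lowest at -1.04. This is 78.6% called against 85.7% of all genes. The median of Btrc was 1863 in old, 1800 in rejuvenated old and 923 in young MSCs, and its young libraries lay below all others.

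Among 10 genes of ubiquitin supply, 3 rose and 2 fell in rejuvenated old MSCs, and 2 were higher and 5 lower in young than in old MSCs. These are 50% and 70% called, against 41.6% and 85.7% of all genes tested. Among 13 genes of the p97 complex and the shuttle factors that bring substrates, 1 rose in rejuvenated old MSCs (Ubqln4, 0.25) and 6 fell, and 6 were higher and 5 lower in young MSCs, with Ufd1 the lowest at -1.16. These are 53.8% and 84.6% called, the latter close to the share of all genes. Ubqln4 had medians of 1254 in old, 1468 in rejuvenated old and 1692 in young MSCs, in which no ranges overlapped. For Ufd1 the medians were 3343 in old, 3506 in rejuvenated old and 1509 in young MSCs, with the young libraries below all others.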

How the data were processed

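Per the paper's methods and the labels, total RNA from 18 cultures was made into stranded mRNA libraries, which the authors mapped with HISAT2 (mm10). Reads per gene came from StringTie and featureCounts, followed by DESeq2 for normalization. Versions, gene annotation and strand setting are not given in the sources used here. What the authors deposited is a normalized signal for every gene in each library, namely its reads over the size factor of that library, without pooling of replicates. Every value was a whole multiple of 1 step per library (100% within 0.01 read), which gave back reads for the count tests. Counting error is small at this depth, and a floor of 3 reads per library was used.

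Groups came from the sample titles. The test was limma 3.58.1 on log2(value + 1) (R 4.3.3, a trended prior variance, all 3 groups in one fit) over the 14353 genes with a mean of 10 or more, with Benjamini-Hochberg adjustment over all of them. This scale understates the change of low genes. On simulated counts of these genes for rejuvenated old against old MSCs, limma recovered 68% of the genes changed 1.25-fold, the smallest change given. It recovered 100% of those changed 2-fold or more, with 4 false calls among 179. In the simulation 200 of the 14353 genes were changed, whereas 41.6% were called in the data. The adjustment depends on this share, so these rates may not hold for the data. Recovery of changes under 1.25-fold was not tested. The median absolute log2 fold change of the members in this comparison, 0.09, lies in that range. Alternatives were the pseudocount, the filter, the scaling, fits of 2 groups, a replicate block, edgeR 4.0.16 and DESeq2 1.42.0 on recovered reads, a stricter adjusted p and leaving out each library.

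The members and lists were chosen with earlier results of these data known. Values in every group were given for the 3 called members with the largest rise and fall in rejuvenated old against old and in young against old MSCs, the catalytic subunits, activators and inhibitor, the members under the filter, Psmb8, Psmb9, Pomp, Nfe2l1, Nfe2l2 and the called gene with the largest change of each list. For the list of ubiquitin supply, single genes are not reported here. Any other gene is named because it lies at the end of a range or behind a count, or was chosen after its values were seen. Positions were taken from RefSeq GRCm38.p6 (the build of mm10), exon lengths from GENCODE M21, and copies were searched with blastn 2.17.0. Paaf1, a chaperone of the 19S base, and protein sequences were not analysed here. The 45 pairs of libraries within groups all differed beyond sampling noise (a chi-square of 2.54 to 22.3 per degree of freedom), and each library was counted once.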

Additional observations from a re-analysis of the deposited data

Results flagged for a closer look

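Of 171 groups of 6 libraries checked for a library far from the other 5, 11 had one, and chance gives about 1 in 20 groups, or about 9. Of the 11, 5 were old replicate 2. In this library Psme1 was at 2183 normalized counts (the other old libraries ended at 1824), Psmb10 at 1571 (1225), Psmd5 at 2428 (2237), Psmb8 at 2131 (1362) and Psmb9 at 631 (397). Without it, rejuvenated old against old MSCs had log2 fold changes of 0.56 for Psme1, 0.53 for Psmb10, 1.00 for Psmb8 and 0.85 for Psmb9, each larger than with it, whereas the change of Psmd5 was smaller, at -0.11 against -0.14. The other 6 were single genes. Psmb2 was low in young replicate 4, at 3030, where Psmd11 was high, at 1978. Psmc3 was low in rejuvenated old replicate 6, at 5971. Psmg1 was high in young replicate 3, at 819, and Psmg2 in old replicate 5, at 444. Btrc was low in rejuvenated old replicate 3, at 1715.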

How the results depend on the processing

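Over 30 alternatives, the calls of 29 of 44 members between rejuvenated old and old MSCs, 30 between young and old and 33 between young and rejuvenated old MSCs stayed on their side of the threshold in each. At an adjusted p under 0.01, 12 members (27.3%, against 29.9% of all genes tested) were called between rejuvenated old and old MSCs, 5 of them higher. With each library set to the same total, 8 members were lower in young than in old MSCs instead of 13, and the median log2 fold change of the members was 0.17 (young against old) and 0.11 (young against rejuvenated old). The same scaling gave log2 ratios of the summed levels, against old and against rejuvenated old MSCs in turn, of 0.27 and 0.23 for the 20S core, 0.064 and 0.15 for the 19S particle and 0.30 and 0.13 for the assembly chaperones in young MSCs. With the same 75th percentile the 19S ratio of young to old was 0.024. Psmd14 turned from -0.08 to 0.014 on the log2 scale between young and rejuvenated old MSCs at the same total (limma, adjusted p = 0.648). The scaling alone changed in these fits.

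With each library left out in turn, 7 to 15 members rose in rejuvenated old against old MSCs and 8 to 10 fell, and 21 to 23 were higher in young than in old MSCs. The count of members that rose was 9 without old replicate 2. The replicate numbers did not pair the libraries (correlation of deviations -0.15 to 0.07), and with a replicate block 36 members were called between young and old MSCs and 22 between rejuvenated old and old MSCs, against 35 and 22. edgeR and DESeq2 on the recovered reads called 13 higher and 9 lower between rejuvenated old and old MSCs, as limma did. The Psmg genes had the fewest reads of the 44 members.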
